A study of Mus musculus with 12 samples.

Results

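The genes described here encode proteins that build, anchor and maintain the sarcomere of heart muscle. The set holds 43 genes chosen by symbol, of 46983 symbols in each deposited table, and falls into 8 role classes of 2 to 12 genes. RNA was sequenced from hearts of BL6/C57 mice, whose cardiomyocytes (CM) and other cells (NonCM) were collected apart. Each fraction had 3 libraries from Wls fl/fl mice, labelled MCM/+ Wls fl/fl, and 3 from control mice, labelled MCM/+. Both genotypes had 3 doses of tamoxifen on postnatal days 1 to 3 and a myocardial infarction on day 2, and tissue was taken 2 weeks after surgery, although the labels name the cells as adult. MCM is the usual name of MerCreMer, a Cre recombinase flanked by estrogen receptor domains that is switched on by tamoxifen, and Wls is the carrier that Wnt proteins need for secretion. The labels do not name the promoter that drives MCM, and there was no group with floxed Wls but without MCM.

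A sarcomere is the contractile unit between a pair of Z-discs. Thin filaments of actin, tropomyosin and troponin are anchored at the Z-disc, thick filaments of myosin are cross-linked at the M-band in the middle, and titin spans from Z-disc to M-band. Desmin filaments and costameres tie the Z-discs to each other and to the cell membrane, chaperones fold myosin, and muscle-specific ubiquitin ligases mark worn proteins for removal.

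Recovered reads per library numbered 5171769 to 9775856 in CM and 1160146 to 10281214 in NonCM, where control replicate 1 was the shallowest. The targeted gene Wls had normalized read counts of 91.6, 57.3 and 93.9 in CM Wls fl/fl libraries, against 243, 201 and 210 in CM control libraries (limma adjusted p = 0.00389). In NonCM it averaged 332 ± 21.4 in Wls fl/fl libraries and 403 ± 26.9 in control libraries (SD, n = 3 each; limma adjusted p = 0.0831). Esr1, the gene for the estrogen receptor whose domains MerCreMer carries, averaged 1527 ± 203 in CM Wls fl/fl libraries and 22.4 ± 9.83 in CM control libraries (SD, n = 3 each), although both are labelled MCM/+. A difference in MCM between the genotypes therefore cannot be told apart from the loss of Wls in any comparison given here. In all 4 groups the counts of replicate 3 lay close to a weighted mean of replicates 1 and 2. The mean squared deviation from that mean was 0.996 to 1.05 times the counting variance for replicate 3, against 1.11 to 1.78 times when replicate 1 or 2 took its place. In each case the weight giving the smallest value was used, and the 1% of genes with the largest deviations were left out. Results are therefore also given without replicate 3, and whether the 3 libraries of a group are 3 separate hearts was not tested.

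Promoters of 5 members are shown as examples of the motifs below, chosen after their values were seen, from members that were lower (Trim63 and Lrrc10), higher (Flnc) and not called (Mypn and Myoz2) once other muscle genes were held equal in NonCM. RefSeq windows (build GRCm38.p6) of 300 bases, from 250 before to 50 after an annotated start, were found for 34 of the 43 members (44 windows in all). The MCAT element CATTCC is bound by TEAD factors, the DNA-binding partners of Yap. On either strand it occurred in 12 of the 44 windows (27.3%), against 14.7% of all 32851 windows. The CArG box, bound by serum response factor, occurred in 4 (9.09%, against 1.63% of all windows), and the MEF2 site in 6 (13.6%, against 3.19%). TATAAA, which a MEF2 site can overlap, occurred in 5 (11.4%, against 13.6%). These are counts of windows and not of separate sites, since windows of the same gene can overlap. The CArG box of Ldb3 is the same site in both of its windows, 109 and 35 bases before their starts. The MCAT element of Flnc is also the same site in both of its windows, 1 and 104 bases before their starts. Capitals mark these motifs. In Trim63 they lie 80 (GGAATG, the reverse strand of CATTCC) and 31 bases (TATAAA) before the start. In Lrrc10 TATAAA lies 16 bases before the start, and in Flnc CATTCC lies 104 bases before it. In Mypn they lie 49 (GGAATG) and 27 bases (TTTATA, the reverse strand of TATAAA) before the start. In Myoz2 the MEF2 site lies 33 bases before the start. CATTCC thus stands in windows of members that were lower, higher and not called on that scale.
Trim63, chr4:134314870-134315169, plus strand: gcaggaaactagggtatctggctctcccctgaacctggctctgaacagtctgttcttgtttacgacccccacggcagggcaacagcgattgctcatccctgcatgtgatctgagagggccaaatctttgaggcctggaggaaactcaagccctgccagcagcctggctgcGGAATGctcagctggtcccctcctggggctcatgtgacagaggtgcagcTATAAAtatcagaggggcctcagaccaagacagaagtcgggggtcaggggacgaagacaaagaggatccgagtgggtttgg
Lrrc10, chr10:117045091-117045390, plus strand: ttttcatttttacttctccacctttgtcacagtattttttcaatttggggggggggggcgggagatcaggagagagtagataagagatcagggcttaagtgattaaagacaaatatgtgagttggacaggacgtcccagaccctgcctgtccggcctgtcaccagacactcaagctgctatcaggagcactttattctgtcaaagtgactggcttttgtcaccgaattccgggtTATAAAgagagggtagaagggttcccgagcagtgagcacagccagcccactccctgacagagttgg
Flnc, chr6:29433006-29433305, plus strand: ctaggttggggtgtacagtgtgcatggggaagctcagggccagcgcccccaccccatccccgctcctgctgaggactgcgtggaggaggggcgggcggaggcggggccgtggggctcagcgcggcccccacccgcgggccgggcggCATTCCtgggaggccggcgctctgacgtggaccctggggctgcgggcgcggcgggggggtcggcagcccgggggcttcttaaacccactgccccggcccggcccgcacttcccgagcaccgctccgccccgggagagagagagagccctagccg
Mypn, chr10:63203903-63204202, minus strand: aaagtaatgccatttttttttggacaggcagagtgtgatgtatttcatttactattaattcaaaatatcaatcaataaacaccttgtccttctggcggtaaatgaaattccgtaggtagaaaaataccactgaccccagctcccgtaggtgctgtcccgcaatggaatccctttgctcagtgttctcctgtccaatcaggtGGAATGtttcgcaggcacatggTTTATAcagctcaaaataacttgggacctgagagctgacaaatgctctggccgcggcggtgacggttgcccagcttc
Myoz2, chr3:123034938-123035237, minus strand: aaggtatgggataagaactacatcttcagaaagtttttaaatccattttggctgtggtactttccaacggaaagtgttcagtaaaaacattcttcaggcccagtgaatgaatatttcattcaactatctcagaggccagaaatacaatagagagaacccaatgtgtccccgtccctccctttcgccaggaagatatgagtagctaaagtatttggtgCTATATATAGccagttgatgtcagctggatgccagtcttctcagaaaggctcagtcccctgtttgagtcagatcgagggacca
A match describes the letters in a window and is not evidence that a factor is bound there.

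In control libraries most members were abundant in both fractions. The level per gene length, in RPKM (normalized reads per kilobase of exon at equal library totals), was highest in CM controls for myoglobin (Mb, the oxygen-storing protein) at 4438 ± 236, and then for tropomyosin (Tpm1) at 1220 ± 54.2 and the calcium-binding troponin C (Tnnc1) at 1190 ± 28.5 (SD, n = 3 each). Tpm1 and Tnnc1 differed by less than their spread. Exon length was the union over all annotated transcripts of a gene, and the order of members depends on it. It was 1.492 kb for Mb, 6.485 kb for Tpm1, 1.041 kb for Tnnc1 and 7.752 kb for Tnnt2. Lengths of the transcripts in use were not estimated. Troponin T (Tnnt2), which ties troponin to tropomyosin, stood at 828 ± 9.70, and myosin-binding protein C (Mybpc3) at 794 ± 21.7. At the other end, the level was 1.13 ± 0.0649 for Synm, 0.254 ± 0.0893 for Myom3 and 0.216 ± 0.0326 for Neb, and the last pair overlapped. The 43 members together took 6.03 ± 0.283% of normalized reads in CM Wls fl/fl libraries and 5.94 ± 0.084% in CM control libraries. In NonCM they took 3.52 ± 0.122% in Wls fl/fl libraries and 4.17 ± 0.187% in control libraries (SD, n = 3 each).

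The NonCM libraries held much muscle RNA, and the members differed between fractions as other muscle genes did. Between the control groups, a joint edgeR fit of recovered reads called 39 of 42 members lower in NonCM than in CM and 1 higher, with a median log2 difference of -0.78 (NonCM minus CM). Of all genes tested, 27.3% were called lower and 27.4% higher. Cardiomyocyte genes outside the sarcomere, a list of 18 calcium-handling, mitochondrial and other genes, were all called lower, with the same median of -0.78. The member called higher was Synm (synemin, an intermediate filament protein of several muscle and non-muscle cell types), at 1.88 (edgeR adjusted p = 1.12e-11). Pdlim3, a Z-disc PDZ-LIM protein, had 0.24 (adjusted p = 0.075) and Neb -0.43 (adjusted p = 0.0939), and neither was called. For comparison, the median difference was 2.93 over 10 fibroblast markers and 4.48 over the 10 tested of 12 macrophage markers. In such bulk samples, fewer cells of a type and less RNA per cell cannot be told apart.

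In the CM fraction no member passed the limma test between Wls fl/fl and control hearts, and the most negative changes were in Myom2 and Tcap, whose proteins bind titin at opposite ends. The 18 cardiomyocyte genes outside the sarcomere took 3.20 ± 0.0876% of normalized reads in CM Wls fl/fl libraries and 3.16 ± 0.0315% in CM control libraries (SD, n = 3 each). The 10 fibroblast markers took 0.119 ± 0.0141% in CM Wls fl/fl libraries and 0.110 ± 0.00582% in CM control libraries, with 0 called by limma (2 at an unadjusted p under 0.05). By limma, 0 of 43 members were called at an adjusted p under 0.05, and 10 had an unadjusted p under 0.05. Of all 11944 genes tested in CM, 0.0251% were called lower and 0.067% higher, and 1044 had an unadjusted p under 0.05. The median log2 change (Wls fl/fl minus control) was 0.02, with 17 members below 0 and 26 above. All 3 Wls fl/fl libraries lay below all 3 control libraries for 6 members and above them for 6, against 7.05% and 7.97% of all genes tested, and the groups overlapped for the other 31.

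Myom2 (chr8:15057653-15133541, GRCm38) encodes M-protein, a cross-linker of the M-band. In CM it had 19722, 19049 and 19378 normalized reads in Wls fl/fl libraries, against 22448, 24242 and 23194 in control libraries. The groups did not overlap, and the log2 change was -0.26 (SE 0.04, limma adjusted p = 0.0502), with an adjusted p of 0.0304 by edgeR and, in the authors' deposited table, of 0.000495. Tcap (chr11:98383811-98384953), or telethonin, joins the ends of titin molecules at the Z-disc. It had 2657, 2710 and 2629 normalized reads in CM Wls fl/fl libraries, against 3137, 3111 and 3262 in CM control libraries, again with no overlap. Its log2 change was -0.25 (SE 0.04, limma adjusted p = 0.0638), and in the authors' deposited table its adjusted p was 0.0135. Both were called by DESeq2, while edgeR called Myom2 alone. Without replicate 3 of both genotypes, 0 members were called by limma or by edgeR, each with 2 members at an unadjusted p under 0.05. Over all genes, limma and edgeR then called 2 each, with 476 and 471 at an unadjusted p under 0.05.

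The other CM members had limma adjusted p-values of 0.399 or more. Trim63, or MuRF1, a ubiquitin ligase that marks sarcomere proteins for breakdown, had -0.23 (limma adjusted p = 0.424), Lmod2 -0.15 (0.452), Cmya5 -0.15 (0.399), Tnnt2 -0.11 (0.483) and Nrap -0.11 (0.501) as log2 changes with limma adjusted p-values in brackets. On the positive side stood titin (Ttn) at 0.15 (0.607), the mitochondrial creatine kinase Ckmt2 at 0.13 (0.452), Mybpc3 at 0.09 (0.578) and the methyltransferase Smyd2 at 0.10 (0.731). Among sarcomere genes that are not members, the titin-binding stress protein Ankrd1 had -0.25 (0.280) and the actin-binding Xirp2 0.17 (0.363), and 0 of 29 tested were called by limma.

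In the NonCM fraction of Wls fl/fl hearts, limma called members of 6 of the 8 role classes lower. Most calls were among Z-disc, thin filament and costamere genes. The median change was below 0 in all 8 classes. Of 42 members tested, limma called 23 lower and 0 higher (35 had an unadjusted p under 0.05), against 2.03% of all genes called lower and 2.47% called higher. Of all 13271 genes tested, 2565 had an unadjusted p under 0.05. The median log2 change of the members was -0.29, where the median of all genes was 0.02, and 40 members were below 0. All 3 Wls fl/fl libraries lay below all 3 control libraries for 34 members and above them for 0, against 12.6% and 13.9% of all genes tested. Other muscle genes moved with them, since 13 of the 18 cardiomyocyte genes outside the sarcomere were called lower (median -0.27) and 12 of 30 tested sarcomere genes that are not members (median -0.29).

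Fibroblast and macrophage markers moved in the opposite direction in the same libraries. The 10 fibroblast markers took 1.36 to 1.47% of normalized reads in NonCM Wls fl/fl libraries and 0.924 to 0.946% in NonCM control libraries, and limma called 8 of them higher. The 12 macrophage markers took 0.195 to 0.211% in Wls fl/fl libraries and 0.139 to 0.173% in control libraries, with 3 called higher. Of the 10 endothelial markers, at 0.182 to 0.190% in Wls fl/fl libraries and 0.195 to 0.202% in control libraries, 1 was called lower. Smooth muscle markers, at 0.0423 to 0.0497% in Wls fl/fl libraries and 0.0482 to 0.0521% in control libraries, gave 0 limma calls among the 6 tested (2 at an unadjusted p under 0.05). Their part in the members' lower values was not tested. Without replicate 3 of both genotypes, limma called 0 members (23 at an unadjusted p under 0.05) and edgeR 1 (25). Over all genes limma then called 0 of 13278 (1242 at an unadjusted p under 0.05) and edgeR 27 of 13271 (1664). Single libraries also mattered. The count of members was 29 when control replicate 1 was left out, 27 for control replicate 2 and 7 for control replicate 3. It was 18 when Wls fl/fl replicate 1 was left out, 6 for Wls fl/fl replicate 2 and 5 for Wls fl/fl replicate 3. Of all genes, 753, 324, 20, 171, 18 and 10 were called lower in the same order, so calls over the whole fit changed too.

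**Figure D1:**
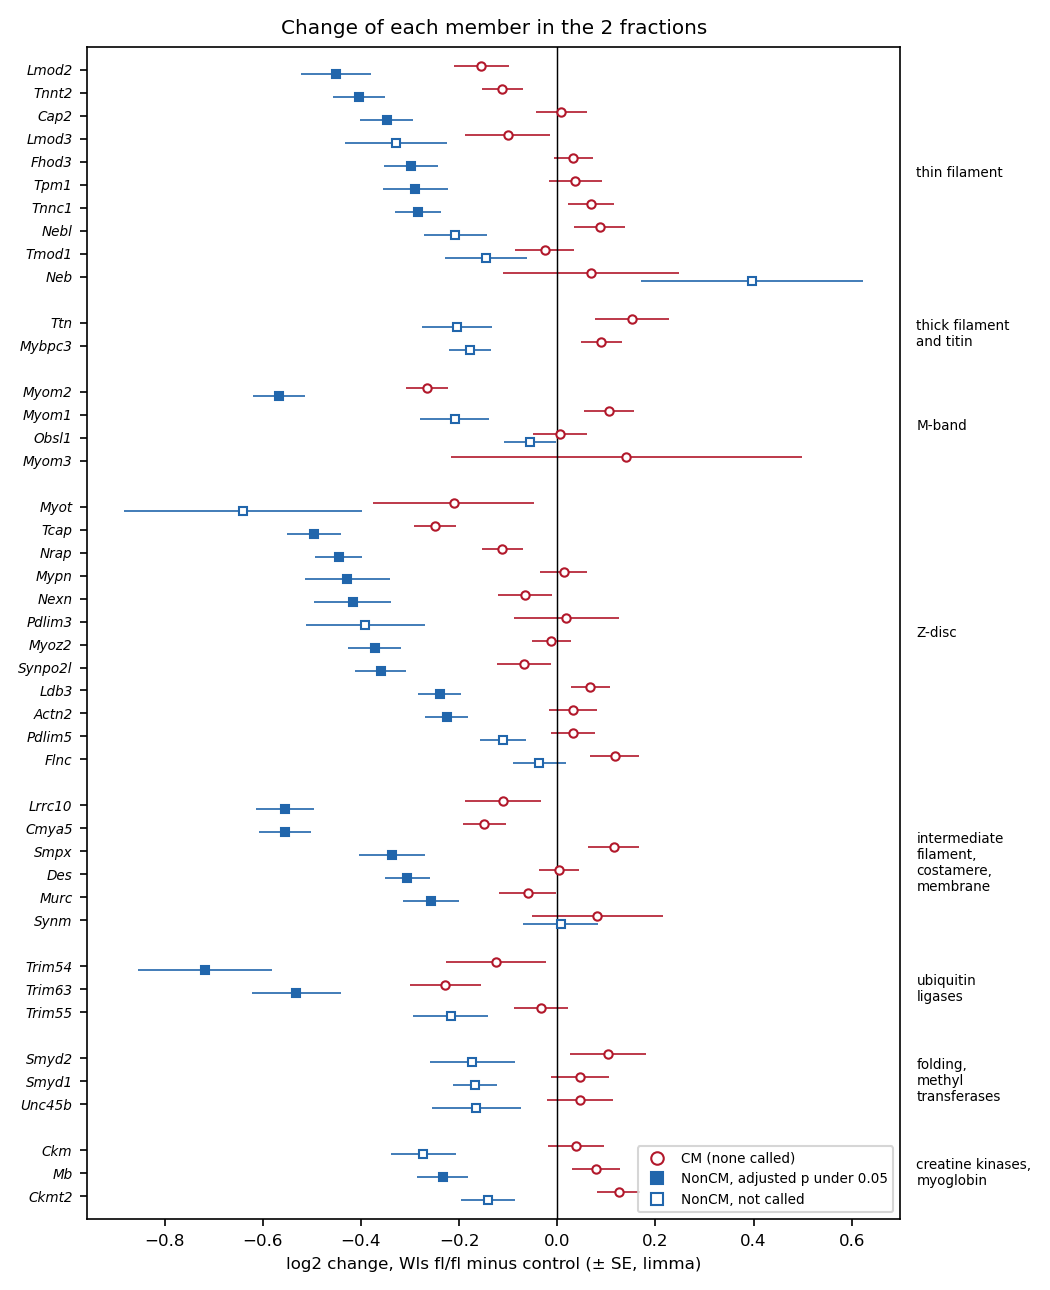
Log2 change (Wls fl/fl minus control, with the limma standard error) of each member in CM (open circles) and NonCM (squares, filled where the adjusted p was under 0.05), grouped by role class. CM values lie around 0, with a median of 0.02, while 40 of the 42 NonCM values lie below 0, with a median of -0.29.

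Among thin filament genes, 6 of 10 were called lower in NonCM (class median -0.29). Tnnt2 had 20904, 20403 and 20331 normalized reads in NonCM Wls fl/fl libraries, against 28904, 25865 and 26874 in NonCM control libraries. The groups were apart, with a log2 change of -0.40 (SE 0.05, limma adjusted p = 0.00505). Lmod2, leiomodin 2, lengthens thin filaments at their pointed ends, and it had 2664, 2285 and 2359 normalized reads in Wls fl/fl libraries, against 3520, 3067 and 3396 in control libraries (log2 change -0.45, adjusted p = 0.0125). The actin regulators Cap2 and Fhod3, a formin needed to assemble cardiac myofibrils, fell by 0.35 and 0.30 on the log2 scale (adjusted p = 0.0117 and 0.0209). Tpm1 and Tnnc1 fell by 0.29 and 0.28 (adjusted p = 0.0432 and 0.0137). The members not called were the pointed-end cap Tmod1, Lmod3, nebulette (Nebl) and nebulin (Neb), which ranged from -0.33 to 0.40. Neb, a giant ruler of skeletal muscle thin filaments, had 56.0, 41.2 and 43.3 normalized reads in Wls fl/fl libraries, against 44.3, 26.7 and 36.2 in control libraries, and these overlapped (adjusted p = 0.387).

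Neither of the thick filament and titin genes was called by limma (class median -0.19). Mybpc3, which binds myosin and tunes contraction, had 12704, 12508 and 12498 normalized reads in NonCM Wls fl/fl libraries, against 14097, 13966 and 14614 in NonCM control libraries. These did not overlap, and the log2 change of -0.18 missed the limma threshold (adjusted p = 0.0518), although edgeR gave 0.0300. Ttn had 57360, 50453 and 52198 normalized reads in Wls fl/fl libraries, against 57164, 65577 and 61579 in control libraries, which overlapped (log2 change -0.20, limma adjusted p = 0.152). The adjusted p of Ttn was 0.0349 by edgeR and 0.0321 in the authors' deposited table.

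Of the 3 M-band genes tested in NonCM, 1 was called lower. Myom2 had 11248, 10108 and 10490 normalized reads in NonCM Wls fl/fl libraries, against 15250, 15940 and 15943 in NonCM control libraries. Every Wls fl/fl library lay well below every control library (log2 change -0.57, SE 0.05, limma adjusted p = 0.00138). Myom1 (chr17:71002633-71126856), myomesin, the structural relative of M-protein that links thick filaments to titin, had 8230, 6687 and 7303 normalized reads in Wls fl/fl libraries, against 8554, 8532 and 8504 in control libraries (log2 change -0.21, adjusted p = 0.138). Obsl1, a cytoskeletal adaptor of the M-band, had -0.06 (adjusted p = 0.612). Myom3 was too low to be tested in NonCM, with 5.23 to 9.54 normalized reads in Wls fl/fl libraries and 6.10 to 16.6 in control libraries.

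Z-disc genes had the most calls, 8 of 12 lower with a class median of -0.38. Tcap had 1651, 1553 and 1593 normalized reads in NonCM Wls fl/fl libraries, against 2151, 2209 and 2411 in NonCM control libraries, with no overlap (log2 change -0.50, SE 0.06, limma adjusted p = 0.00292). Nrap, which organises actin and α-actinin in forming myofibrils and at intercalated discs, had 3428, 3153 and 3188 in Wls fl/fl libraries, against 4463, 4516 and 4318 in control libraries (log2 change -0.45, adjusted p = 0.00253). Both were separated by more than the spread within either group. The calcineurin-binding Myoz2, the titin- and nebulette-linked Mypn, the actin-binding Nexn and Synpo2l fell by 0.37, 0.43, 0.42 and 0.36 on the log2 scale (limma adjusted p = 0.00775, 0.0279, 0.0226 and 0.00813). The core cross-linker α-actinin (Actn2) and its partner Ldb3 fell by less, 0.23 and 0.24 (adjusted p = 0.0262 and 0.0209). The 4 members not called, Myot, Pdlim3, Pdlim5 and the actin cross-linker filamin C (Flnc), ranged from -0.64 to -0.04.

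Of the 6 genes of intermediate filaments, costameres and membrane, 5 were called lower. Cmya5 (chr13:93040713-93144724), or myospryn, is a large desmin-binding scaffold near the Z-disc. It had 4014, 3690 and 3847 normalized reads in NonCM Wls fl/fl libraries, against 5937, 5403 and 5619 in NonCM control libraries (log2 change -0.55, SE 0.05, limma adjusted p = 0.00138). Lrrc10, a leucine-rich repeat protein found in cardiomyocytes, had 655, 589 and 632 in Wls fl/fl libraries, against 909, 950 and 897 in control libraries (log2 change -0.55, adjusted p = 0.00216). In both genes the groups stood far apart. Desmin (Des), Smpx and the caveolar protein Murc fell by 0.31, 0.34 and 0.26 on the log2 scale (adjusted p = 0.0101, 0.0269 and 0.0381). In the authors' deposited table the DESeq2 adjusted p of Murc was 0.114. Synm had a change of 0.01 (adjusted p = 0.969), with 252 to 261 normalized reads in Wls fl/fl libraries and 239 to 270 in control libraries.

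Among the ubiquitin ligases of the MuRF family, Trim63 (chr4:134315120-134329629) had 1149, 937 and 1068 normalized reads in NonCM Wls fl/fl libraries, against 1663, 1368 and 1528 in NonCM control libraries. The groups were apart (log2 change -0.53, SE 0.09, limma adjusted p = 0.0158). Trim54, or MuRF3, had 75.7, 85.8 and 81.5 in Wls fl/fl libraries, against 144, 149 and 111 in control libraries (log2 change -0.72, SE 0.14, adjusted p = 0.0242). It had the most negative change of the members and one of the lowest levels, and in the shallowest control library 1 read equals 5.54 normalized reads. Trim55, or MuRF2, had -0.22 (adjusted p = 0.157). The myosin chaperone Unc45b and the methyltransferases Smyd1 and Smyd2 had -0.17, -0.17 and -0.17, none called by limma (lowest adjusted p = 0.0690). By edgeR the adjusted p of Smyd1 was 0.0342, and in the authors' deposited table it was 0.104. Myoglobin fell by 0.23 (adjusted p = 0.0403), while the muscle creatine kinase Ckm had -0.27 (adjusted p = 0.0534) and Ckmt2 -0.14 (adjusted p = 0.203).

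Only 5 of the 23 calls, Myom2, Cmya5, Lrrc10, Tcap and Nrap, held with each of the 6 NonCM libraries left out in turn, at limma adjusted p-values of at most 0.0372. Of the 30 sarcomere genes tested outside the set, 27 were below 0 and 3 above, with log2 changes from -1.04 (Myl7) to 0.59. The Myl7 change had an SE of 0.78 and was not called (limma adjusted p = 0.512), and by edgeR it was -0.29. All 3 Wls fl/fl libraries lay below all 3 control libraries for 20 of the 30 genes and above for 3. Those above 0 were Tpm2 (0.59, limma adjusted p = 0.0748), Tpm3 (0.25, 0.114) and Fhl1 (0.13, 0.201). Among the called ones of smallest p were Myo18b (-0.32), Csrp3 (-0.39), Xirp1 (-0.35), Tnni3 (-0.30) and Myl3 (-0.29), with limma adjusted p-values of 0.00493, 0.00515, 0.00916, 0.00929 and 0.0120 in that order. Their groups did not overlap, as in troponin I (Tnni3), which had 11320 to 11872 normalized reads in Wls fl/fl libraries and 13881 to 14552 in control libraries.

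**Figure D2:**
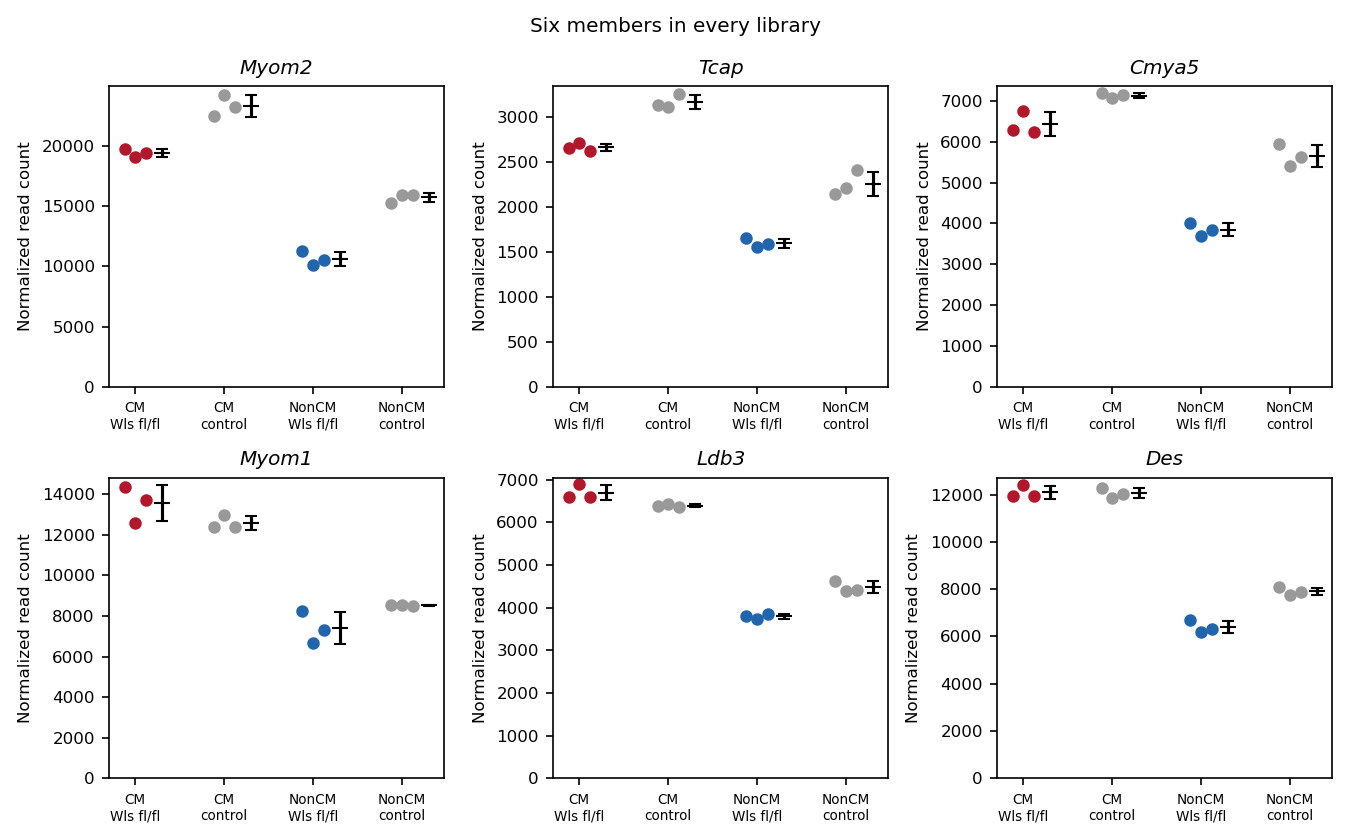
Normalized read counts of 6 members in each of the 12 libraries (points), with the mean and SD of each group of 3 (bars), counts being scaled separately in CM and NonCM. For Myom2, Tcap and Cmya5 the Wls fl/fl libraries lie below the control libraries in both fractions, while for Myom1, Ldb3 and Des they do so in NonCM and overlap or lie higher in CM.

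To ask which members departed from the rest of the muscle RNA, the NonCM libraries were scaled so that the 18 cardiomyocyte genes outside the sarcomere had the same geometric mean in every library. On this scale the median change of all genes was 0.28 and that of the 42 members -0.02. Limma then called 9 members lower and 5 higher, where 0.166% of all genes were called lower and 30.6% higher. The 9 were Myom2 (-0.30), Cmya5 (-0.29), Lrrc10 (-0.29), Tcap (-0.23), Nrap (-0.18), Lmod2 (-0.19), Tnnt2 (-0.14) and the ligases Trim63 (-0.27) and Trim54 (-0.46), with adjusted p-values of 0.00257 to 0.0485. These are log2 changes beside cardiomyocyte RNA, and the scaling moves every gene by the same amount.

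The 5 members called higher on this scale were Flnc (0.23), Pdlim5 (0.15), Obsl1 (0.21), Synm (0.27) and Neb (0.66), with limma adjusted p-values of 0.0118 to 0.0464, and none of them was called on the deposited scale. Between the control fractions (NonCM minus CM) their log2 differences were -0.58, -0.64, -0.51, 1.88 and -0.43 in that order. The member median was -0.78, and the 9 members called lower had -0.85 (Tnnt2) to -0.60 (Cmya5). The part of other cell types in the scaled changes was not tested. Markers of skeletal muscle, where nebulin is abundant, took 0.00149 ± 0.000435% of normalized reads in NonCM Wls fl/fl libraries and 0.000953 ± 0.0000791% in NonCM control libraries (SD, n = 3 each). Of that list Tnnc2 had no read in any library, and the list's part in the Neb value was not tested. Myom2 and Cmya5 kept their call with each library left out in turn. Without replicate 3 of both genotypes, 0 members were called in either direction by limma or edgeR (8 and 9 at an unadjusted p under 0.05). Of all genes, limma then called 0 lower and 34 higher, and edgeR 3 lower and 540 higher. With single libraries left out, member calls lower ranged from 2 (without Wls fl/fl replicate 2) to 8. Member calls higher ranged from 0 (without Wls fl/fl replicate 2 or 3) to 7 (without control replicate 1). Calls over all genes ranged from 4 to 66 lower and from 1080 to 5183 higher.

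**Figure D3:**
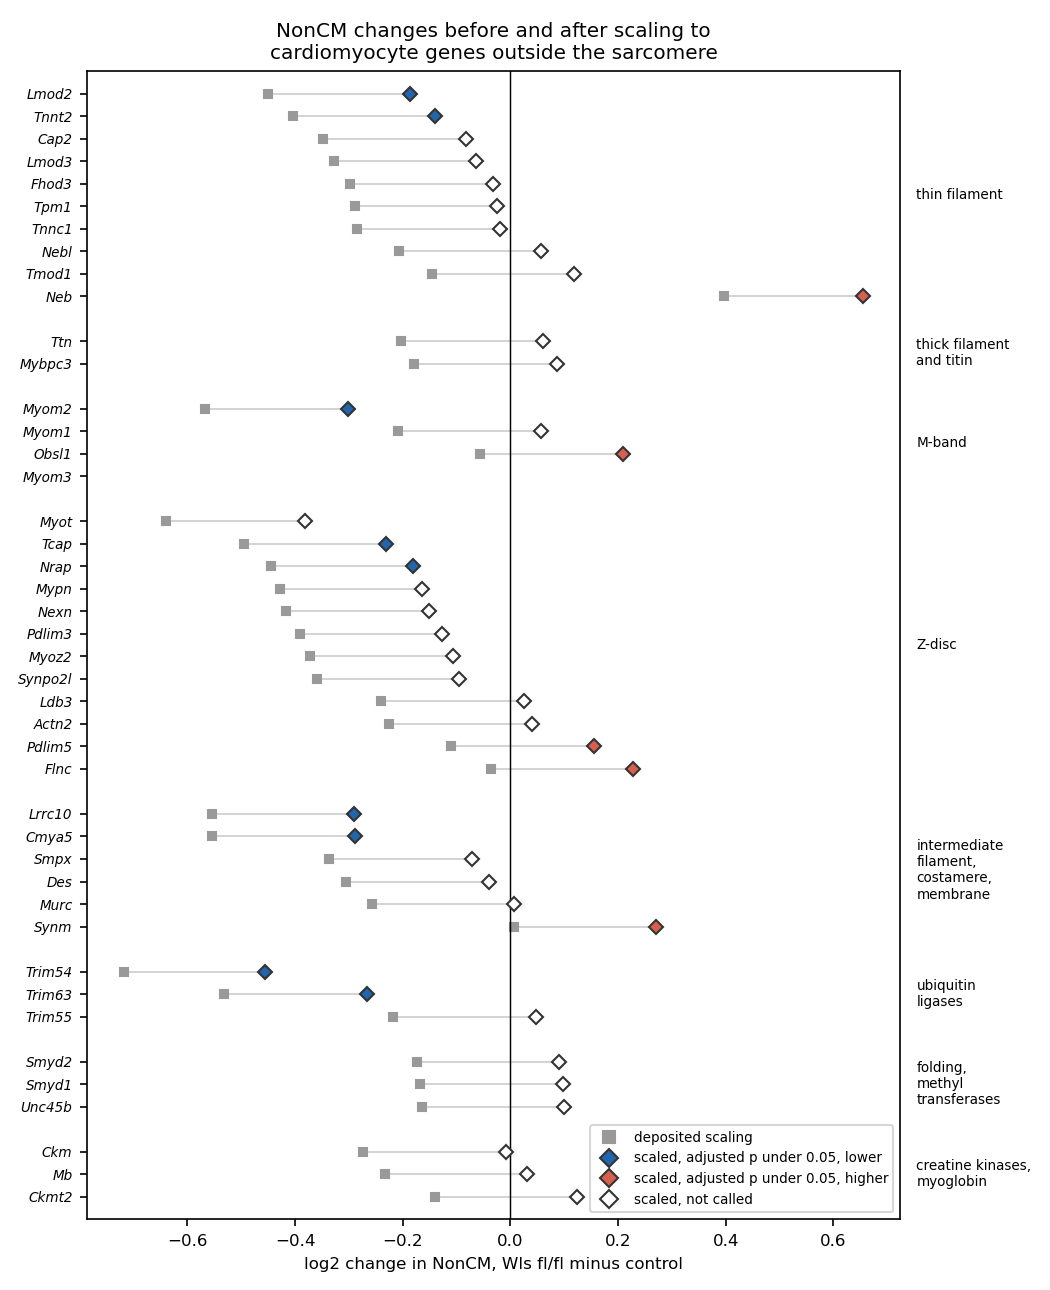
Log2 change of each member in NonCM (Wls fl/fl minus control) as deposited (grey squares) and after scaling to the cardiomyocyte genes outside the sarcomere (diamonds, coloured where the limma adjusted p was under 0.05), grouped by role class. The median of the members moves to -0.02 from -0.29. After scaling 9 members are called lower and 5 higher, where 0.166% of all genes are called lower and 30.6% higher.

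The ratio of related members within a library does not depend on scaling. Pairs were chosen after their values were seen, so the ratios are a description. Myom2 over Myom1 was 1.38, 1.51 and 1.41 in CM Wls fl/fl libraries, against 1.81, 1.87 and 1.87 in CM control libraries. In NonCM the same ratio was 1.37, 1.51 and 1.44 in Wls fl/fl libraries, against 1.78, 1.87 and 1.87 in control libraries. This RNA ratio was thus lower in all 6 Wls fl/fl libraries than in any of the 6 control libraries. The fractions may share hearts, and replicate 3 lay near a weighted mean of the others, so these libraries cannot be counted as independent. Tcap over Ldb3 averaged 0.398 ± 0.00463 in CM Wls fl/fl libraries and 0.497 ± 0.0154 in CM control libraries, and 0.422 ± 0.0113 in NonCM Wls fl/fl libraries and 0.504 ± 0.0407 in NonCM control libraries (SD, n = 3 each). Cmya5 over Des averaged 0.532 ± 0.0112 in CM Wls fl/fl libraries and 0.591 ± 0.00549 in CM control libraries, and 0.601 ± 0.00644 in NonCM Wls fl/fl libraries and 0.714 ± 0.0200 in NonCM control libraries (SD, n = 3 each). Trim63 over Trim55 overlapped between genotypes in CM (2.08 ± 0.269 in Wls fl/fl and 2.37 ± 0.0978 in control libraries) but not in NonCM (1.97 ± 0.108 in Wls fl/fl and 2.44 ± 0.0788 in control libraries).

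**Figure D4:**
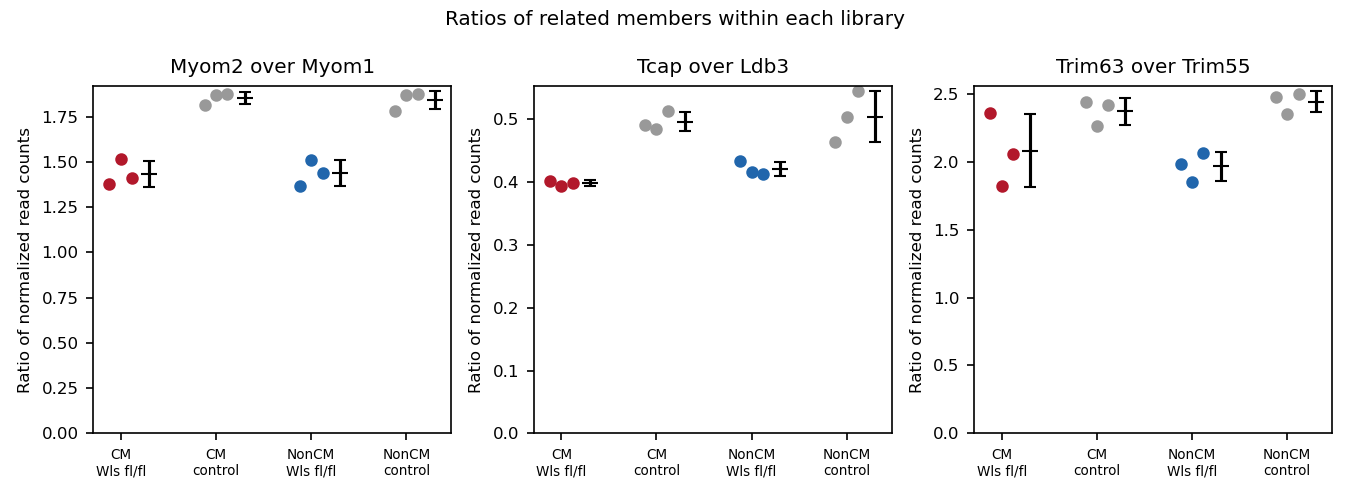
Ratios of normalized read counts within each library (points) for 3 pairs of members, with the mean and SD of each group of 3 (bars). Myom2 over Myom1 is 1.37 to 1.51 in the Wls fl/fl libraries of both fractions and 1.78 to 1.87 in the control libraries.

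Over the 42 members tested in both fractions, those lower in CM Wls fl/fl libraries were also the lower ones in NonCM (Pearson's r = 0.711, Spearman's rho = 0.76 across genes). The genes are not independent, the CM and NonCM libraries may come from the same hearts, and the value is a description only. Among the 40 members with a mean of 50 or more in both fractions, r was 0.761 and rho 0.748.

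Whether the change itself differed between fractions was tested by the interaction in the joint edgeR fit (change in NonCM minus change in CM). It was called lower for 9 of 42 members and higher for 0, with a median difference of -0.30, against 0.626% of all genes called lower and 0.355% higher. The 9 were Smpx, Cmya5, Myoz2, Fhod3, Lrrc10, Nrap, Cap2, Tnnc1 and Mypn, at differences of -0.44 to -0.33 (edgeR adjusted p = 0.0319 to 0.0480). Myom2 and Tcap had changes below 0 in both fractions, although limma called neither in CM. Their differences were -0.30 and -0.25 (edgeR adjusted p = 0.0501 and 0.0904). Of the 18 cardiomyocyte genes outside the sarcomere 6 were called lower in the same way, with a median of -0.30. None of the 9 calls held with each of the 12 libraries left out in turn, and without replicate 3 of all groups 0 members were called by edgeR (22 at an unadjusted p under 0.05). Of all 11820 genes, 1 was then called (830 at an unadjusted p under 0.05). With the main libraries limma-voom called 18 members and 279 of all genes.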

How the data were processed

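Total RNA of 12 libraries (4 groups of 3) was sequenced in bulk. Per the submitters' processing notes, STAR, DESeq2 and the build mm10 were used. Versions, annotation, the counting tool and its use of strand: not given in the sources used here. For each fraction a deposited table holds a signal value per gene and library, the read count divided by the library's size factor. Per the file headers, the authors also gave log2 fold changes, a test score and p-values (raw and adjusted) of DESeq2, which were printed only where named. Whole reads were recovered for 100% of values to a tolerance of 0.01.

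Each fraction was tested with limma 3.58.1 in R 4.3.3 (lmFit, and eBayes with its trend option). Values entered as log2(value + 1), for genes averaging 10 or more, with Benjamini-Hochberg adjustment over all genes and a threshold of 0.05, so fold changes of low genes are understated. Fractions were compared with edgeR 4.0.16 (quasi-likelihood, TMM) on recovered reads of 12 libraries. Alternatives were edgeR, DESeq2 1.42.0, limma-voom, other scalings, filters and pseudocounts, and libraries left out. The code was tested on simulated data. Replicates were numbered in accession order and pair no samples, and with 3 against 3 an exact permutation test cannot go below 0.1. Members and lists were chosen with earlier results of these data known. Named were all called members, per role class the 2 members of smallest p in NonCM and 1 in CM, and of other sarcomere genes at most 6 called ones and 2 of smallest p in CM, of which 1 is not reported here. Positions are from GENCODE M21, and promoters from RefSeq. Without stated use of strand, reads of overlapping antisense genes cannot be told apart.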

Additional observations from a re-analysis of the deposited data

Results flagged for a closer look

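For 9 members the genotype difference in NonCM passed the test of its difference from that in CM, by the interaction in the joint edgeR fit (log2 change in NonCM minus that in CM), where 0.626% of all genes were called lower and 0.355% higher. No call stood under every omission of a single library: 0 to 15 members were called, with 0 without CM control replicate 1 or 3, CM Wls fl/fl replicate 1 or 3, NonCM control replicate 3, or NonCM Wls fl/fl replicate 2 or 3, and 0 without replicate 3 of all groups. Calls over all genes ranged from 0 to 242 with single libraries left out, and 1 gene was called without replicate 3 of all groups. The differences were -0.42 for Smpx, -0.40 for Cmya5 and -0.44 for Lrrc10, of intermediate filaments, costameres and membrane. Among Z-disc genes they were -0.36 for Myoz2, -0.39 for Mypn and -0.33 for Nrap, and among thin filament genes -0.35 for Tnnc1, -0.34 for Cap2 and -0.33 for Fhod3. In CM the limma changes of these genes lay between -0.15 and 0.12, and in NonCM between -0.55 and -0.28. The cardiomyocyte genes outside the sarcomere had a median difference of -0.30, as the members did.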

How the results depend on the processing

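In CM the count of 0 called members became 2 after scaling to cardiomyocyte genes, 2 with no filter, 2 by DESeq2, 1 by edgeR, 1 with a pseudocount of 0.5, and 0 to 1 with single libraries left out. In NonCM the 23 calls became 14 (9 lower, 5 higher) after that scaling, 0 without replicate 3 of both genotypes (edgeR 1), and 5 to 29 with single libraries left out, and 19 to 31 under the other settings. Over all genes, that scaling gave 22 calls lower and 4067 higher. The 598 limma calls over all genes became 0 without replicate 3, and 77 to 1634 with single libraries left out. The scaling turned the direction of Actn2 (0.0396), Ldb3 (0.0251), Mb (0.0313), Murc (0.00712), Mybpc3 (0.0864), Myom1 (0.0558), Smyd1 (0.0968), Smyd2 (0.0905), Ttn (0.0608), Tmod1 (0.12), Nebl (0.06), Trim55 (0.05), Unc45b (0.10) and Ckmt2 (0.12), none called there, and of Flnc (0.23), Pdlim5 (0.15) and Obsl1 (0.21), which were called higher. After it 23 of the 42 members lay below 0, against 40 on the deposited scale. By its construction it moves every gene up by the same amount. The 9 scaled calls lower became 2 to 8, and the 5 higher 0 to 7, with single libraries left out, and both 0 without replicate 3, by limma and edgeR. The 9 interaction calls became 15 with upper-quartile scaling, 18 by limma-voom, 0 to 15 with single libraries left out and 0 without replicate 3 of all groups, and the cause was not tested. Over all genes the interaction gave 74 calls lower and 42 higher, and with upper-quartile scaling 167 and 53. The 40 calls between fractions stayed at 39 to 40 throughout. No paired analysis was possible because the labels share no replicate number between genotypes or fractions and tie no library to a heart. The settings for scaled values with libraries left out, and edgeR without replicate 3, were chosen after seeing the data. The lone shallow NonCM library, control replicate 1, limits low genes such as Trim54 and Neb.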
